A study of Homo sapiens with 12 samples.

Results

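The comparison described here is the control arm of an RNA interference study in Kelly cells, a human neuroblastoma line with an amplified MYCN gene. It sets 2 libraries from cells that carried a control short hairpin RNA (shRNA) and received 2 µg/mL doxycycline (shCTRL, doxycycline) against 2 libraries from the same cells left untreated (shCTRL, untreated). These 4 libraries were taken by their labels from 12 in all. The other 8 came from Kelly cells with a doxycycline-inducible shRNA against RCOR1 (shRCOR1, 2 with doxycycline and 2 untreated) or against RCOR2 (shRCOR2, 2 with doxycycline and 2 untreated). The labels give 72 h of treatment in titles and design and 24 or 48 h in the treatment protocol, so 72 h stands here as a label. They do not say whether replicates were separate cultures, and the p-values then measure only the spread between these samples. No group received doxycycline without a hairpin, so an effect of the drug and an effect of hairpin expression cannot be told apart. The sequence of the control hairpin was not used here.

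Doxycycline belongs to the tetracyclines, antibiotics that bind the bacterial ribosome and can also slow protein synthesis on the related ribosome of mitochondria. In mammalian cells, trouble in mitochondrial protein synthesis or the respiratory chain is one of several known triggers of the integrated stress response. In that response, phosphorylation of the initiation factor eIF2 lowers general translation while favouring the transcription factor ATF4. ATF4 and its partners of the C/EBP family then switch on genes for amino acid synthesis, amino acid uptake and tRNA charging, through a composite promoter sequence called the C/EBP-ATF response element. A hairpin RNA, in turn, passes through the cell's own microRNA machinery. These points are background to the groups of genes described here.

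Gene abundance was deposited in TPM (transcript abundance normalised for gene length and library total), a share of the RNA in a library. Changes are given as log2(TPM + 1) with doxycycline minus log2(TPM + 1) untreated, with their standard error (SE), so a positive value means higher with doxycycline. Calls were made by limma with the replicate number as a block, where the p adjusted by Benjamini-Hochberg over the 16842 genes tested was below 0.05. Depth is known only relatively, from coverage divided by FPKM. The libraries with doxycycline were 1.18 and 1.83 times as deep as the shallowest of the 12; of the untreated ones, replicate 1 was 1.26 times as deep and replicate 2 was itself the shallowest. Replicate libraries correlated across genes with r = 0.967 with doxycycline and 0.977 untreated. Markers of an adrenergic neuroblastoma cell were abundant: DBH, the enzyme that makes noradrenaline, had 1039 and 897 TPM with doxycycline and 1074 and 968 TPM untreated. Of 6 leukocyte markers none reached 1 TPM in any of the 4 libraries, and their summed level was 0.243 and 0.828 TPM with doxycycline and 0.291 and 0.631 TPM untreated. The 12 fibroblast, smooth muscle and endothelial markers summed to 54.4 and 93.9 TPM with doxycycline and 62.8 and 86.4 TPM untreated, with 5 of the 12 under 1 TPM throughout. The 8 Schwann cell markers summed to 3.85 and 12.4 TPM with doxycycline and 4.25 and 12.8 TPM untreated, and the 5 epithelial markers to 6.49 and 12.5 TPM with doxycycline and 8.09 and 11.7 TPM untreated. These sums differed more between replicate numbers than between treatments.

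The change in the control line was small for most genes. By sign alone, 46.0% of the genes tested were higher and 53.9% lower with doxycycline. With FPKM the balance turned, with 7770 of 14337 genes higher and 6567 lower. Of the 16842 genes tested, 5 rose (0.0297%) and 5 fell (0.0297%) with doxycycline by limma. Without the replicate block limma called 0 genes, the smallest adjusted p was 0.441, and 938 genes (5.57%) had an unadjusted p below 0.05. With the block, the count depended on each library: without the replicate 1 library with doxycycline 522 genes rose and 592 fell, without the replicate 2 library with doxycycline 0 rose and 5 fell, and without either untreated library limma called none. With the untreated replicate 1 or replicate 2 library left out, 1522 and 1851 genes had an unadjusted p below 0.05, and 1484 without the replicate 2 library with doxycycline. Under the block 2642 genes (15.7%) had an unadjusted p below 0.05, of which 934 were higher (5.55%) and 1708 lower (10.1%). A 2-fold difference was reached by 52 genes higher and 30 lower with doxycycline, and in both replicate pairs by 26 and 12 of them. The changes of the 2 pairs correlated across genes with r = 0.332, and 63.8% of genes had the same sign in both, where genes are not independent replicates. For comparison, the same test called 4620 genes in the shRCOR1 line and 6100 in the shRCOR2 line.

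The 5 genes that rose serve nitrogen metabolism, blood vessel growth, the respiratory chain, the endoplasmic reticulum and translation. ASS1 (ENSG00000130707.18, chromosome 9, 130444961 to 130501274, GRCh38), which makes argininosuccinate in the urea cycle and in arginine synthesis, had 441 and 492 TPM with doxycycline and 197 and 206 TPM untreated. Both libraries with doxycycline stood far above both untreated ones, a change of 1.21 ± 0.14 or 2.31-fold (limma adjusted p = 0.0469). The same adjusted p applied to each of the 10 called genes. VEGFA, the growth factor that directs vessel sprouting, had 121 and 192 TPM with doxycycline and 60.6 and 96.2 TPM untreated. The ratio was alike in both pairs although the replicate 2 libraries were higher in both groups, and the change was 0.99 ± 0.12. COA8, a factor for the assembly and stability of cytochrome c oxidase, had 22.8 and 20.8 TPM with doxycycline and 13.9 and 10.8 TPM untreated, a change of 0.78 ± 0.09. It overlaps KLC1 on the same strand, which had a change of 0.02. ERP29, a chaperone-like protein of the endoplasmic reticulum, had 172 and 177 TPM with doxycycline and 112 and 110 TPM untreated, a change of 0.65 ± 0.07. EIF3L, a subunit of the initiation factor eIF3, had 683 and 777 TPM with doxycycline and 447 and 511 TPM untreated, a change of 0.61 ± 0.07. In each of these 5 genes the 2 groups did not overlap. Of all 16842 genes tested, 1345 were apart in this way on the higher side and 2619 on the lower side. The calls were made on these same values, so the separation is no added evidence.

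The 5 genes that fell had untreated means from 5.39 TPM for MIR22HG to 1136 TPM for the mitochondrial tRNA MT-TY. MIR22HG (chromosome 17), the host transcript of the microRNA miR-22, had 1.18 and 1.83 TPM with doxycycline and 4.80 and 5.97 TPM untreated. This was the largest of the 5 falls, −1.36 ± 0.17, at a level of a few TPM, and WDR81 on the opposite strand had a change of −0.27. CMTM3, a membrane protein with a MARVEL domain, had 17.5 and 12.5 TPM with doxycycline and 29.9 and 24.97 TPM untreated, a change of −0.84 ± 0.10. RABL6, a GTPase-like protein of the RAB family, had 154 and 122 TPM with doxycycline and 233 and 208 TPM untreated, a change of −0.68 ± 0.08. UQCRFS1, the Rieske iron-sulfur subunit of respiratory complex III, had 55.1 and 47.0 TPM with doxycycline and 77.8 and 71.8 TPM untreated, a change of −0.55 ± 0.07. Its pseudogene UQCRFS1P1, which could share reads with it, had a change of −0.89 ± 0.14 (limma adjusted p = 0.0871). MT-TY, the mitochondrial tRNA for tyrosine, had 646 and 766 TPM with doxycycline and 1139 and 1134 TPM untreated, a change of −0.69 ± 0.08. It spans 66 bases and overlaps MT-TC, and a length-normalised value of so short a gene is uncertain.

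**Figure D1:**
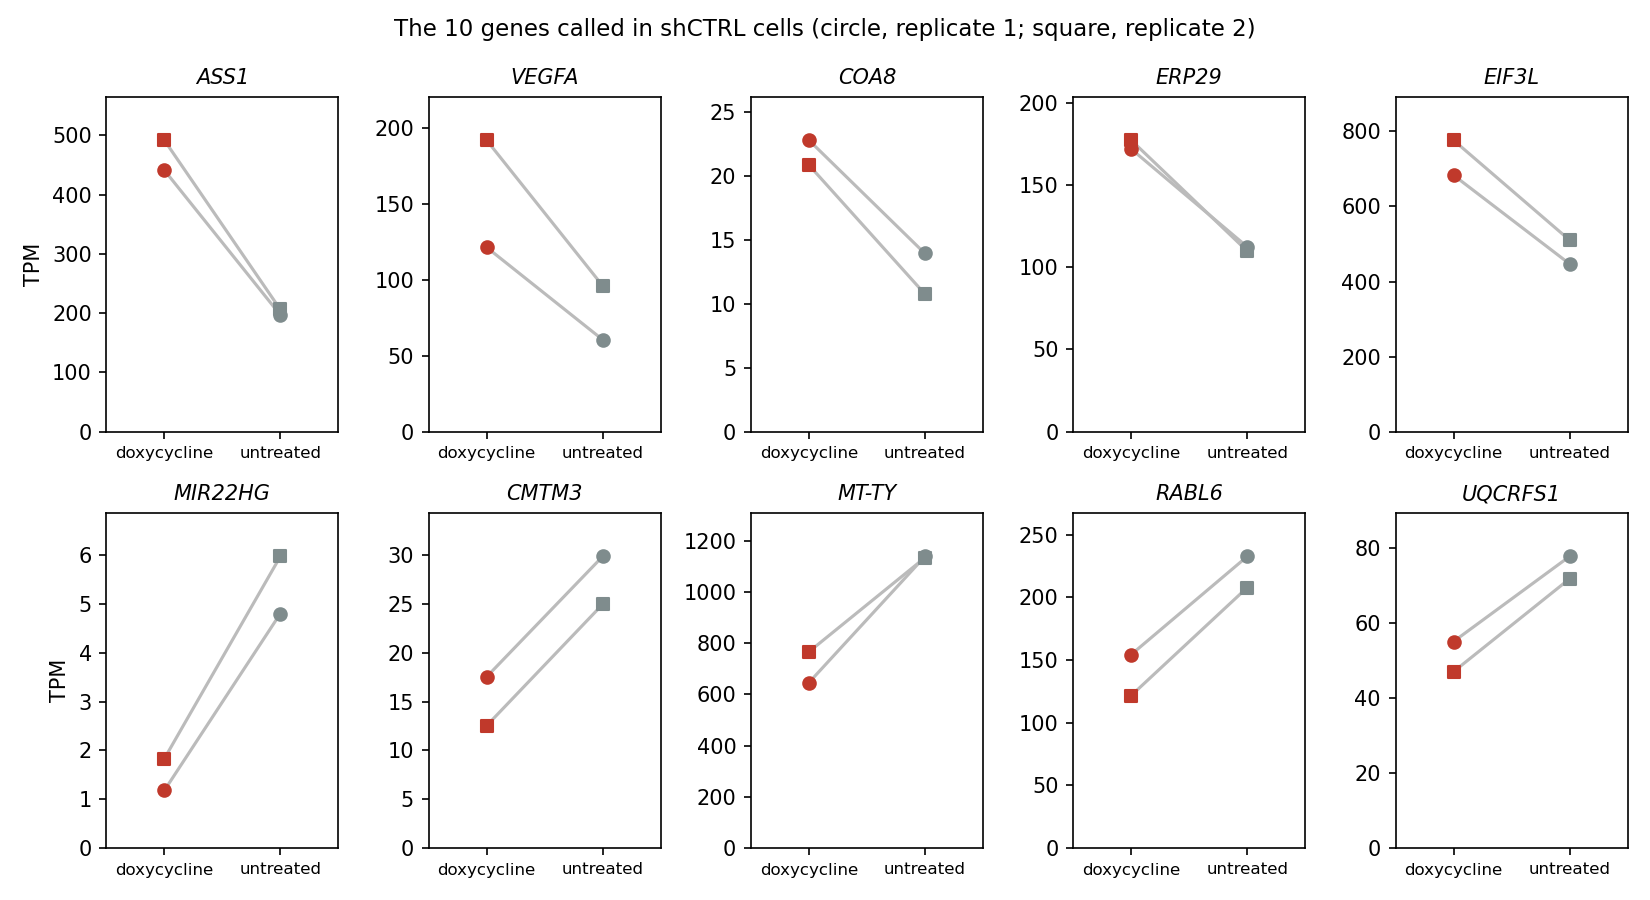
TPM of the 10 genes called in shCTRL cells, with doxycycline on the left and untreated on the right of each panel; circles are replicate 1, squares replicate 2, and lines join libraries of the same replicate number. In every panel both points of one group lie on the same side of both points of the other, as for ASS1 with 441 and 492 TPM with doxycycline and 197 and 206 TPM untreated. Of all 16842 genes tested, 1345 were apart in this way on the higher side and 2619 on the lower side.

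Genes of the integrated stress response had the largest median change of the gene lists. All 20 of the measured members were higher with doxycycline, 19 of them in both pairs, and the median change was 1.07, against −0.02 for all genes tested. None was called after adjustment; 16 of 20 had an unadjusted p below 0.05 on the higher side (5.55% of all genes) and none on the lower side. Without the block 10 of 20 had it on the higher side, against 300 of all 16842 genes tested. The median was 0.71 without the replicate 2 library with doxycycline and 0.74 without the untreated replicate 1 library. The list's members, like those of the other lists, were not independent evidence, since the lists were chosen with earlier results of these data known.

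ATF4 itself, the transcription factor at the centre of the response, had 639 and 710 TPM with doxycycline and 468 and 464 TPM untreated, a change of 0.53 ± 0.10 (limma adjusted p = 0.117). DDIT3, a C/EBP-family factor also called CHOP, had 33.6 and 103 TPM with doxycycline and 14.8 and 29.1 TPM untreated, a change of 1.46 ± 0.31. CEBPB, another C/EBP factor, had 66.2 and 93.0 TPM with doxycycline and 33.2 and 46.1 TPM untreated, a change of 0.99 ± 0.14 (limma adjusted p = 0.0655). ATF3, an inducible partner of these factors, had 35.8 and 79.3 TPM with doxycycline and 26.2 and 32.8 TPM untreated. In these 4 factors both libraries with doxycycline exceeded both untreated ones. The same held for 10 of the 20 members of the list and for 1345 of all 16842 genes tested.

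Other members of the list are enzymes, feedback genes and a secreted hormone. CHAC1, an enzyme that degrades glutathione, had 50.3 and 80.0 TPM with doxycycline and 12.4 and 28.5 TPM untreated, a change of 1.70 ± 0.29 (limma adjusted p = 0.0939). TRIB3, a pseudokinase that feeds back on ATF4, had 50.6 and 168 TPM with doxycycline and 21.6 and 56.7 TPM untreated, so the untreated replicate 2 library exceeded the replicate 1 library with doxycycline. DDIT4, an inhibitor of the mTORC1 pathway, had 358 and 769 TPM with doxycycline and 126 and 366 TPM untreated, a change of 1.28 ± 0.32. SESN2, a leucine sensor that also restrains mTORC1, had a change of 1.16 ± 0.31. GDF15, a secreted stress hormone, had 8.40 and 46.5 TPM with doxycycline and 1.97 and 7.38 TPM untreated. Its change of 2.08 ± 0.58 was the largest of the list, with 1.66 and 2.50 in the 2 pairs. CHAC1, DDIT3, TRIB3, CEBPB, GDF15, ATF3 and SESN2 were named after their values were seen, as were PSAT1, SHMT2, MTHFD2, MARS1, SLC7A5, XBP1, BBC3, PMAIP1, CDKN1A, MKI67, CENPF, CCNB1, CDK1, HSP90AA1, HSPB1, HSPA4, MT-CO1, MT-ND1, LONP1, HSPA9, INSM2, E2F2, UHRF1, RPL3, UQCRFS1P1, GAS5, SNHG1, EIF1 and MIR17HG.

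**Figure D2:**
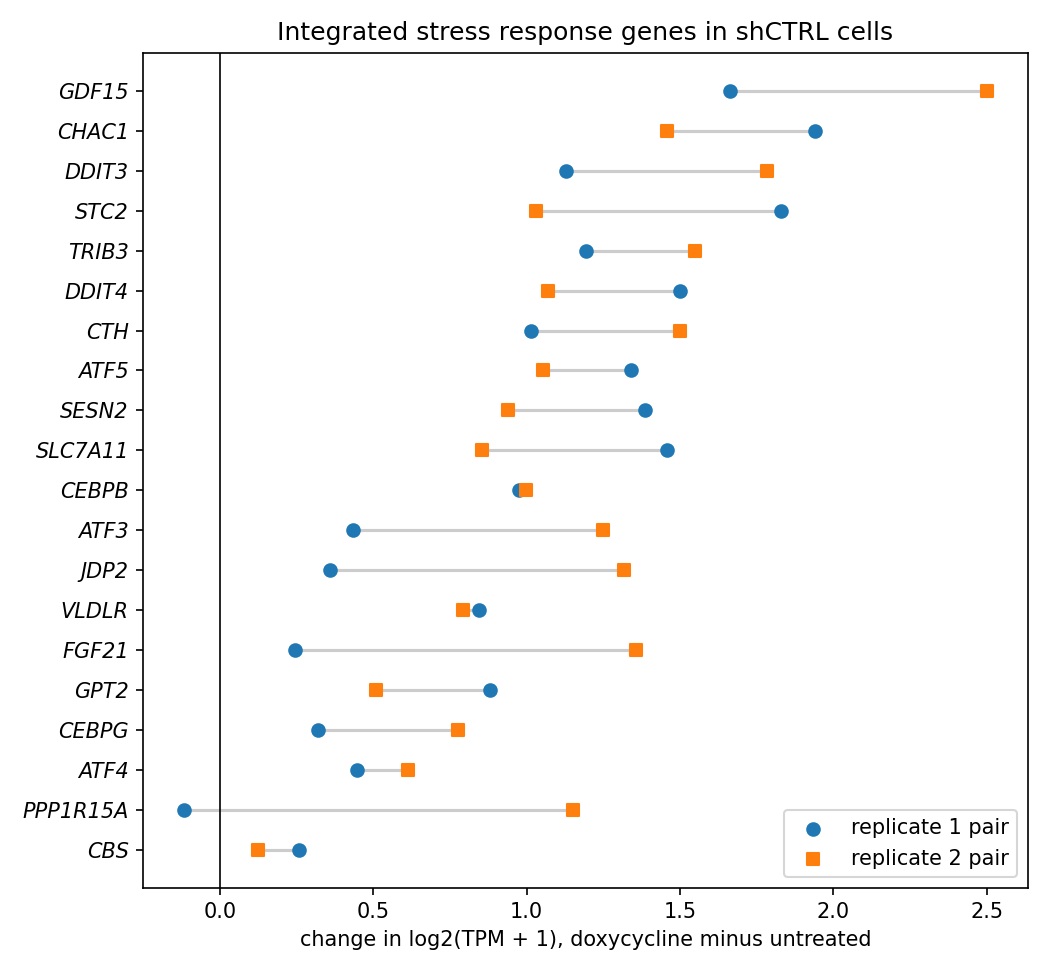
Change in log2(TPM + 1), doxycycline minus untreated, of the 20 integrated stress response genes in shCTRL cells; circles are the replicate 1 pair, squares the replicate 2 pair, and grey lines join them. The 20 means over both pairs lie above 0, and 19 genes lie above 0 in each pair, from CBS at 0.19 to GDF15 at 2.08.

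Amino acid supply followed the same direction. Of 17 genes for amino acid and one-carbon synthesis, 12 were higher, with a median change of 0.42; 10 had an unadjusted p below 0.05 on the higher side (5.55% of all genes) and 1 on the lower side (10.1%). ASNS, asparagine synthetase and a long-known ATF4 target, had 393 and 724 TPM with doxycycline and 126 and 273 TPM untreated, a change of 1.52 ± 0.23 (limma adjusted p = 0.0813). Those enzymes of the serine pathway that are named here had positive values. PHGDH, its entry enzyme, had a change of 0.58 ± 0.10, PSAT1, the transaminase, 0.72 ± 0.12, and SHMT2, which passes serine carbon to folate in mitochondria, 0.75 ± 0.13. MTHFD2, the next mitochondrial folate enzyme, had 226 and 269 TPM with doxycycline and 149 and 167 TPM untreated, a change of 0.64 ± 0.09 (limma adjusted p = 0.0655).

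Of 20 cytosolic tRNA synthetases, 16 were higher, with a median change of 0.33, and 12 had an unadjusted p below 0.05 on the higher side (5.55% of all genes) and none on the lower side. Without the block 10 had it on the higher side, against 300 of all 16842 genes tested. Without the replicate 2 library with doxycycline the median was 0.20. SARS1, which charges the serine tRNA, had 617 and 903 TPM with doxycycline and 365 and 474 TPM untreated, a change of 0.84 ± 0.12 (limma adjusted p = 0.0709). GARS1, for glycine, had a change of 0.73 ± 0.12 and MARS1, for methionine, 0.55 ± 0.09. Of 15 amino acid transporters, 12 were higher, with a median of 0.26; 8 had an unadjusted p below 0.05 on the higher side (5.55% of all genes) and 1 on the lower side (10.1%). SLC7A5, the light chain of the large neutral amino acid exchanger, had 210 and 309 TPM with doxycycline and 124 and 163 TPM untreated, a change of 0.84 ± 0.11 (limma adjusted p = 0.0598). Its heavy chain SLC3A2 had a change of 0.74 ± 0.13, and SLC1A5, a glutamine carrier, 0.55 ± 0.08.

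The promoters of these genes were read for the core of the C/EBP-ATF response element, because it is the sequence through which ATF4 is known to act. The 8-base pattern TGATGNAA was searched on both strands in windows of 250 bases before to 50 bases after each start in RefSeq (GRCh38.p14). It was present in 4.46% of the 27305 genes with a window and in 2.65% of the 10874 tested genes with one. It was found in 5 of 18 stress response genes, 3 of 10 amino acid synthesis genes, 7 of 16 tRNA synthetases and 5 of 13 transporters with a window. It was found in 0 of 14 heat shock genes, 1 of 30 G2 and M phase genes, 0 of 33 S phase genes and 2 of 61 ribosomal protein genes. Genes for the stress response and amino acid supply are known to be switched on through this element. Its presence in them therefore does not depend on these libraries, and whether ATF4 acted here was not tested. Windows of 5 genes are shown with the match in capitals, on the strand of the gene. In CHAC1, GARS1 and MARS1 the pattern lies on the opposite strand, so its reverse complement is in capitals.
ASNS, chr7:97872429-97872516, minus strand: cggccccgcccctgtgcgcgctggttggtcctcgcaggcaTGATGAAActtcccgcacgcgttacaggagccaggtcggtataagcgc
CHAC1, chr15:40953222-40953309, plus strand: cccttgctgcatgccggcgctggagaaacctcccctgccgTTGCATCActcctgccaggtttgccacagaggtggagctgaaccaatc
SLC1A5, chr19:46784864-46784951, minus strand: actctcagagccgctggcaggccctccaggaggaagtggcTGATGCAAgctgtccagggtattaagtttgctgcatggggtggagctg
GARS1, chr7:30594805-30594892, plus strand: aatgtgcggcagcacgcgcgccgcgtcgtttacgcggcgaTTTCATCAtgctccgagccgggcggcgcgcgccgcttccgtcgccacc
MARS1, chr12:57488024-57488111, plus strand: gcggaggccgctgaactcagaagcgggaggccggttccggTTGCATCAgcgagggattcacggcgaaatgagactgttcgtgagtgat
A match is a description of letters and not a bound site. No window of the called genes in the table, ASS1, COA8, ERP29, MIR22HG, CMTM3, RABL6 and UQCRFS1, held this pattern or the other 2 searched here.

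Other stress programmes gave other pictures. Of 31 genes of the unfolded protein response of the endoplasmic reticulum, 16 were higher and the median was 0.00 (−0.11 without the replicate 2 library with doxycycline); 4 had an unadjusted p below 0.05 on the higher side (5.55% of all genes) and none on the lower side. XBP1, a transcription factor of that response, had 163 and 238 TPM with doxycycline and 109 and 126 TPM untreated, a change of 0.74 ± 0.13 (limma adjusted p = 0.0939). The abundant chaperones CALR and HSP90B1 had changes of −0.13 ± 0.11 and −0.21 ± 0.10. Of 17 mitochondrial stress genes 10 were higher, with a median of 0.06 (−0.013 without the replicate 2 library with doxycycline). LONP1, the protease of the mitochondrial matrix, had a change of 0.51 ± 0.14, HSPA9, a matrix chaperone, 0.28 ± 0.08, and the chaperonins HSPD1 and HSPE1 −0.06 ± 0.06 and −0.37 ± 0.13. Of 20 antioxidant genes 10 were higher, with a median of 0.01 (−0.021 without the replicate 2 library with doxycycline); the ferritin chains FTL and FTH1 had 0.08 ± 0.10 and 0.44 ± 0.18.

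Cytosolic heat shock genes lay on the lower side. Of 16 measured, 15 were lower, with a median of −0.40, and 12 had an unadjusted p below 0.05 on the lower side (10.1% of all genes) and none on the higher side. Without the block 9 had it on the lower side, against 638 of all 16842 genes tested. The median was −0.23 without the replicate 2 library with doxycycline and −0.30 without the untreated replicate 1 library. HSP90AA1, the inducible HSP90, had 591 and 363 TPM with doxycycline and 822 and 645 TPM untreated, a change of −0.65 ± 0.14 (limma adjusted p = 0.14). HSPB1, a small heat shock protein, had 283 and 271 TPM with doxycycline and 371 and 355 TPM untreated, a change of −0.39 ± 0.09. HSPA4, a co-chaperone of the HSP70 system, had −0.32 ± 0.07. The most abundant members, HSP90AB1 and HSPA8, had −0.07 ± 0.06 and −0.44 ± 0.20. The heat shock element in its 3-unit form was searched on both strands. It was in 6 of 14 of these genes with a window, in 0.608% of all genes with one and in 0.451% of the tested genes with one. Such shares describe the promoters and do not depend on these libraries. The HSP90AA1 window is shown because this gene had the lowest change of the list.
HSP90AA1, chr14:102087080-102087172, minus strand: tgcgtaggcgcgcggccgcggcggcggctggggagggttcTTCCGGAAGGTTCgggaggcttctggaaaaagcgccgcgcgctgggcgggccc

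Genes of the cell cycle were lower too. All 36 G2 and M phase genes measured were lower with doxycycline, with a median of −0.37. Under the block 30 had an unadjusted p below 0.05 on the lower side (10.1% of all genes). Without the block 3 had it, against 638 of all 16842 genes tested. With any 1 shCTRL library left out the median was −0.41 to −0.34. MKI67, the Ki-67 proliferation antigen, had 60.8 and 45.6 TPM with doxycycline and 90.7 and 74.1 TPM untreated, a change of −0.63 ± 0.16 (limma adjusted p = 0.166). CENPF, a kinetochore protein, had −0.50 ± 0.11, CCNB1, cyclin B1, −0.55 ± 0.13, CDK1, its kinase, −0.36 ± 0.13, TOP2A, a topoisomerase, −0.40 ± 0.13, and TPX2, a spindle factor, −0.28 ± 0.11. The cell cycle homology region was searched as TTTGAA on both strands. It was in 22 of 30 of these genes with a window, in 18.2% of all genes with one and in 13.4% of the tested genes with one. It was in 5 of 13 amino acid transporters, 2 of 10 amino acid synthesis genes, 6 of 61 ribosomal protein genes and 1 of 33 S phase genes. Of heat shock genes 1 of 14 held it, of stress response genes 1 of 18 and of tRNA synthetases 1 of 16. Such shares describe the promoters and do not depend on these libraries. MKI67 holds TTTGAA more than once in a short stretch, shown with 1 of the matches in capitals.
MKI67, chr10:128126407-128126492, minus strand: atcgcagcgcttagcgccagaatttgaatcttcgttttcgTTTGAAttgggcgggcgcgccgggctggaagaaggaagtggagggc
In these bulk samples, fewer cells in a phase and less RNA per cell cannot be told apart.

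Genes of S phase rested more on one pair. Of 39 measured, 37 were lower, but the median was −0.15 in the replicate 1 pair and −0.69 in the replicate 2 pair. An unadjusted p below 0.05 was reached by 12 on the lower side (10.1% of all genes) and 1 on the higher side (5.55%). On the lower side 1 reached it without the block, against 638 of all 16842 genes tested. PCNA, the sliding clamp of replication, had 385 and 136 TPM with doxycycline and 410 and 271 TPM untreated. MCM2, a subunit of the replicative helicase, had 317 and 141 TPM with doxycycline and 351 and 219 TPM untreated. In both genes the replicate 1 libraries were close and the replicate 2 library with doxycycline was the lowest of the 4. E2F2, a regulator of S phase entry, had −0.80 ± 0.24, and UHRF1, a factor that maintains DNA methylation, −0.75 ± 0.26. Without the replicate 2 library with doxycycline the median was −0.08, and without the replicate 1 library with doxycycline −0.75.

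**Figure D3:**
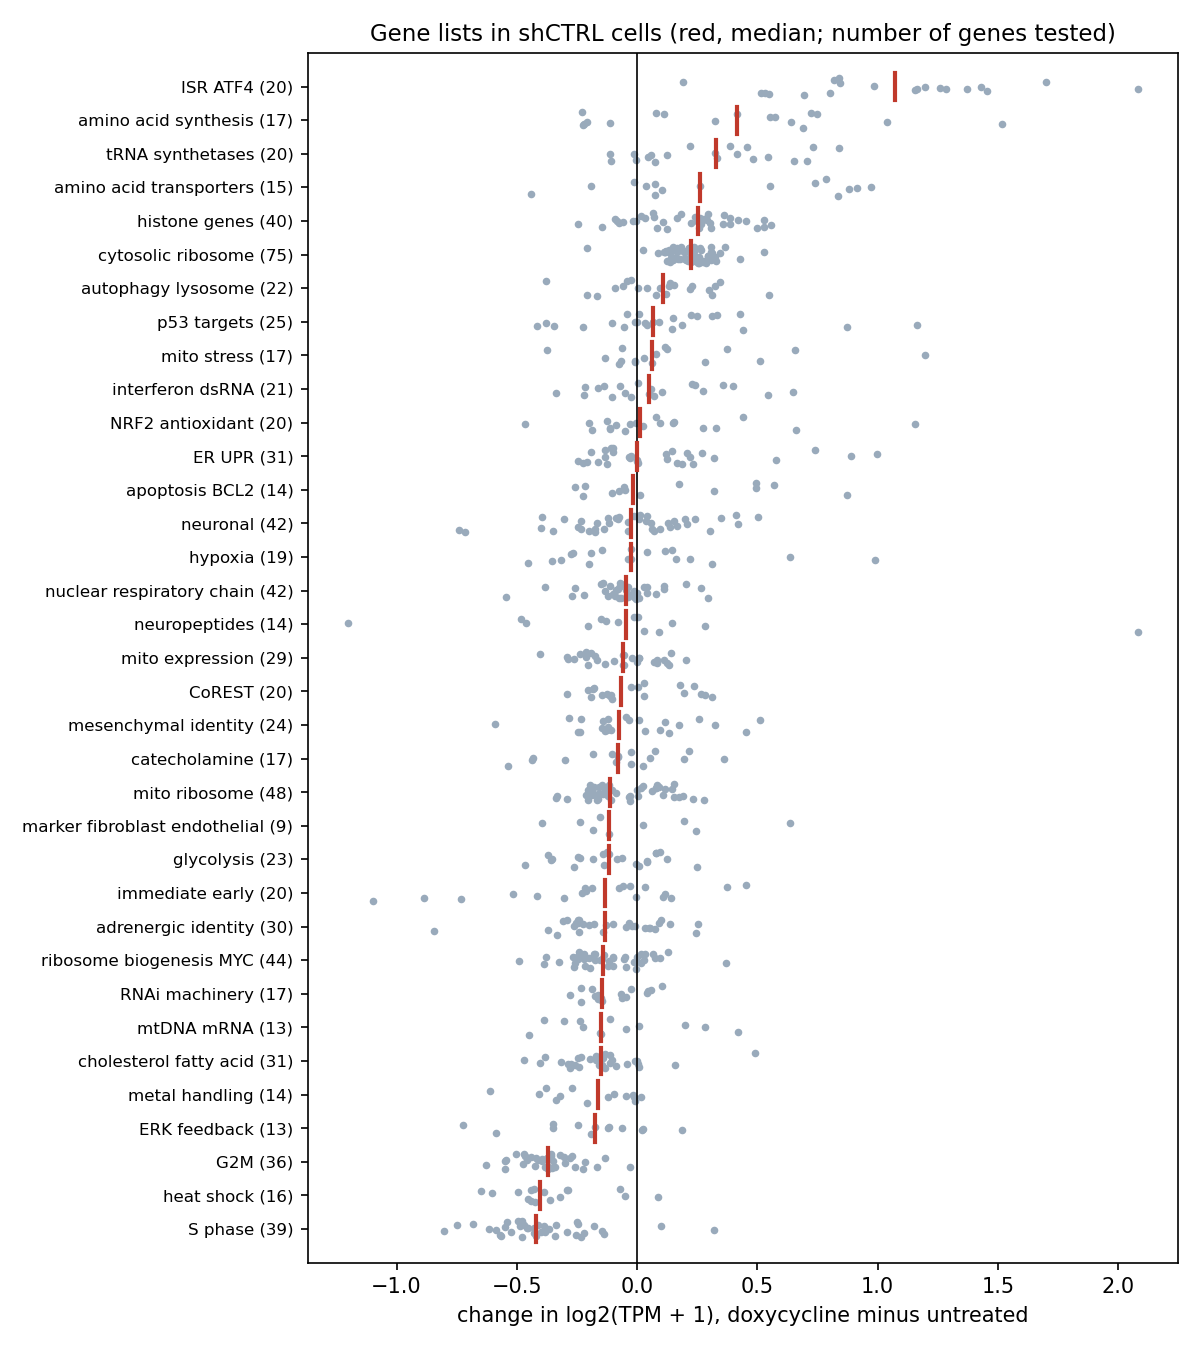
Change in log2(TPM + 1), doxycycline minus untreated, of each gene in the lists with at least 5 tested members in shCTRL cells; grey points are genes, red bars medians, and the number of genes is in brackets. The integrated stress response lies highest at a median of 1.07, and S phase, heat shock and G2 and M phase lowest at −0.42, −0.40 and −0.37.

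Ribosomal protein genes and translation factors were shifted little but together. Of 75 genes of the cytosolic ribosome list, 74 were higher, with a median of 0.22. Under the block 56 had an unadjusted p below 0.05 on the higher side (5.55% of all genes). Without the block 6 had it, against 300 of all 16842 genes tested. RPL3, a protein of the large subunit, had 4817 and 4821 TPM with doxycycline and 3920 and 3673 TPM untreated, a change of 0.34 ± 0.06 (limma adjusted p = 0.0939). RPS2, of the small subunit, had 0.22 ± 0.07 and the elongation factor EEF1A1 0.21 ± 0.06. The list took 17.9% and 15.5% of TPM with doxycycline and 15.3% and 13.2% untreated, so the share was higher in both pairs while replicate 2 was lower in both groups. Under quantile normalization the median was 0.13, with 69 of 75 higher, and EEF1A1 had a change of 0.00. GAS5 and SNHG1, host transcripts of small nucleolar RNAs, had changes of 0.63 ± 0.11 and 0.58 ± 0.09, and EIF1, a start codon factor, 0.56 ± 0.09. Of 44 genes of ribosome biogenesis and MYC response, 35 were lower, with a median of −0.14, but 24 were higher, with a median of 0.027, without the replicate 2 library with doxycycline; NPM1 and EIF4A1 had 0.07 ± 0.11 and 0.13 ± 0.08.

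The mitochondrial genome is transcribed as long precursors and translated by the ribosome that tetracyclines can reach, so its transcripts were read one by one. Mitochondrially encoded genes took 15.5% and 19.9% of TPM with doxycycline and 15.9% and 21.4% untreated. The share differed more between replicate numbers than between treatments. Of the 13 mitochondrial mRNAs 4 were higher and 9 lower, with a median of −0.15. An unadjusted p below 0.05 was reached by 2 on the higher side (5.55% of all genes) and 5 on the lower side (10.1%). Without the block 0 reached it on either side. None was called. MT-ATP6, a subunit of ATP synthase, had 22724 and 31527 TPM with doxycycline and 16989 and 23609 TPM untreated, a change of 0.42 ± 0.07 (limma adjusted p = 0.102). MT-ATP8, which overlaps it on the same transcript, had 0.28 ± 0.08. MT-CO1, a subunit of cytochrome c oxidase, had 13674 and 17775 TPM with doxycycline and 17616 and 23644 TPM untreated, a change of −0.39 ± 0.08, and MT-ND1, of complex I, −0.24 ± 0.07. In MT-ATP6 and MT-CO1 the groups overlapped, and the opposite changes stood out within each pair. Of the ribosomal RNAs, MT-RNR2 had 17220 and 14453 TPM with doxycycline and 22857 and 25594 TPM untreated, a change of −0.62 ± 0.15 (limma adjusted p = 0.152), and MT-RNR1 0.17 ± 0.23. Of the 22 mitochondrial tRNAs 18 were lower, with a median of −0.32; they span 59 to 75 bases, and their values are uncertain.

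**Figure D4:**
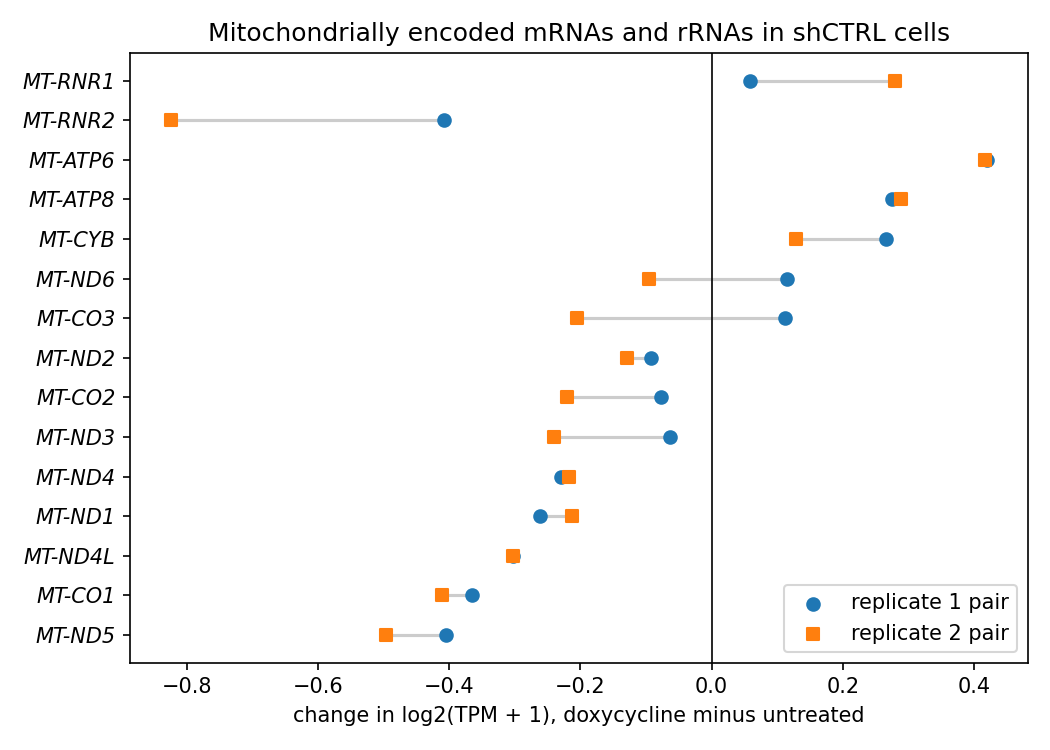
Change in log2(TPM + 1), doxycycline minus untreated, of the 13 mRNAs and 2 rRNAs of the mitochondrial genome in shCTRL cells; circles are the replicate 1 pair and squares the replicate 2 pair. MT-ATP6 at 0.42 lies highest of the mRNAs, and MT-RNR2 at −0.62 lies lowest of the 15.

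Nuclear genes for mitochondria and metabolism had small median changes. Counts of lower genes stand beside 53.9% lower among all genes tested. Of 48 mitochondrial ribosomal proteins 31 were lower, with a median of −0.11, and 11 had an unadjusted p below 0.05 on the lower side (10.1% of all genes) and 1 on the higher side. Without the block 0 had it on either side, against 300 higher and 638 lower of all 16842 genes tested. With 1 shCTRL library left out the median was −0.15 to −0.02. MRPL12 and MRPL3 had −0.14 ± 0.09 and −0.13 ± 0.08. Of 42 nuclear respiratory chain genes 31 were lower, with a median of −0.04 (0.003 with FPKM), and UQCRFS1 was the called member. Of 29 mitochondrial expression factors 19 were lower, with a median of −0.06; TUFM, the mitochondrial elongation factor, had −0.02 ± 0.06 and HSD17B10 −0.05 ± 0.10. Of 14 metal handling genes 13 were lower, with a median of −0.16; TFRC, the transferrin receptor, had −0.27 ± 0.07 and SLC39A1 −0.12 ± 0.07. Of 23 glycolytic genes 15 were lower, with a median of −0.12; GAPDH and LDHB had −0.08 ± 0.06 and 0.04 ± 0.05. Of 19 hypoxia genes 8 were higher, with a median of −0.03 (0.016 with FPKM), and VEGFA was the called member. Of 31 cholesterol and fatty acid genes 26 were lower, with a median of −0.15; SCD and FASN had −0.14 ± 0.13 and −0.26 ± 0.11.

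Among death and growth arrest genes a few stood out. Of 25 p53 targets 16 were higher, with a median of 0.07, and 5 had an unadjusted p below 0.05 on the higher side (5.55% of all genes) and none on the lower side. Without the block 2 had it on the higher side, against 300 of all 16842 genes tested. The median was 0.06 without the untreated replicate 1 library. BBC3, the death effector PUMA, had 20.1 and 27.8 TPM with doxycycline and 10.5 and 14.8 TPM untreated, a change of 0.87 ± 0.19 (limma adjusted p = 0.14). PMAIP1, the death effector NOXA, had 0.49 ± 0.10, and CDKN1A, the cell cycle inhibitor p21, 0.44 ± 0.13. The most abundant members, BAX and CCNG1, had −0.05 ± 0.10 and 0.33 ± 0.14. Lists share some members: the largest change of this list, 1.16, equals that of SESN2 in the stress response list. The lists are therefore not separate signals. Of 14 genes of the BCL2 family 7 were higher, with a median of −0.02 that changed sign under several alternatives; MCL1 had −0.22 ± 0.14. Of 40 histone genes 32 were higher, with a median of −0.09 in the replicate 1 pair and 0.44 in the replicate 2 pair, and 27 were lower without the replicate 2 library with doxycycline; H2BC12 and H1-2 had −0.07 ± 0.14 and 0.31 ± 0.24.

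Genes that respond to foreign or double-stranded RNA, or process hairpins, had small median changes. Of 21 interferon and double-stranded RNA genes 12 were higher, with a median of 0.05 that was below 0 without the replicate 2 library with doxycycline or the untreated replicate 1 library, and 1 had an unadjusted p below 0.05, on the lower side; ADAR and IRF3 had −0.07 ± 0.09 and 0.07 ± 0.07. Of 17 genes of the microRNA machinery 13 were lower, with a median of −0.14 and 3 with an unadjusted p below 0.05 on the lower side (10.1% of all genes). XPO5, which exports hairpin precursors, had −0.07 ± 0.09, and DROSHA, the nuclear RNase of the pathway, −0.16 ± 0.07. MIR17HG, the host transcript of the miR-17 cluster, had 25.2 and 23.5 TPM with doxycycline and 37.4 and 45.1 TPM untreated, a change of −0.73 ± 0.12 (limma adjusted p = 0.0871).

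Among cell identity genes none was called, and most had small values. Here too, 53.9% of all genes tested were lower. Of 30 adrenergic genes 21 were lower, with a median of −0.13; MYCN had 2928 and 1421 TPM with doxycycline and 2923 and 2000 TPM untreated, a change of −0.25 ± 0.23, and HAND2 −0.02 ± 0.14. INSM2, a neuroendocrine zinc finger factor, had −0.84 ± 0.25. Of 24 mesenchymal genes 14 were lower, with a median of −0.08 (0.11 without the replicate 1 library with doxycycline, 0.057 without the untreated replicate 2 library); VIM had 0.32 ± 0.20 and TWIST1 −0.59 ± 0.11 (limma adjusted p = 0.118). Of 17 catecholamine genes 11 were lower, with a median of −0.08 (0.016 without the replicate 2 library with doxycycline); CHGA and DBH had −0.54 ± 0.20 and −0.08 ± 0.16. Of 42 neuronal genes 22 were lower, with a median of −0.02 that was above 0 with FPKM or with either replicate 1 library left out; UCHL1 and STMN1 had −0.12 ± 0.16 and −0.23 ± 0.12. Of 14 neuropeptide genes 8 were lower, with a median of −0.05 (0.097 without the replicate 2 library with doxycycline); GAL and CARTPT had −0.20 ± 0.14 and −1.20 ± 0.75. Of 20 immediate early genes 14 were lower, with a median of −0.13, but 16 were higher, with a median of 0.16, without the untreated replicate 1 library. JUN had 111 and 47.6 TPM with doxycycline and 235 and 29.9 TPM untreated. Of 13 feedback genes of ERK signalling 10 were lower, with a median of −0.17, but 10 were higher, with a median of 0.095, without the replicate 2 library with doxycycline; SPRY2 and SPRED2 had −0.35 ± 0.15 and −0.19 ± 0.15. Of 22 autophagy and lysosome genes 15 were higher, with a median of 0.11 (−0.025 without the replicate 2 library with doxycycline); NBR1 and LAMP1 had 0.34 ± 0.13 and −0.17 ± 0.08. Markers of other cell types that were tested ranged from −0.39 to 0.64 in the fibroblast, smooth muscle and endothelial list, from −0.50 to 0.13 in the Schwann list and from −0.21 to 0.48 in the epithelial list, with none called. The fibroblast markers PDGFRB and THY1 had −0.18 ± 0.18 and −0.15 ± 0.12, and the keratins KRT19 and KRT8 −0.21 ± 0.15 and 0.05 ± 0.31. Their part in the other results was not tested.

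The targets of the other 2 hairpins were checked in the control line. RCOR1 had 8.83 and 9.15 TPM with doxycycline and 10.7 and 8.99 TPM untreated, a change of −0.11 ± 0.11. RCOR2 had 49.7 and 42.7 TPM with doxycycline and 54.6 and 50.2 TPM untreated, a change of −0.18 ± 0.10. RCOR3, their relative, had 0.20 ± 0.12, and KDM1A, the demethylase that RCoR proteins bind, −0.14 ± 0.06. Of 20 genes of the CoREST complex and its partners, 11 were lower, with a median of −0.07; HDAC2 had −0.03 ± 0.11.

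The control line was then set against the other lines, each measured against its own untreated cells. Differences are given as the shRCOR1 or shRCOR2 change minus the shCTRL change, so a positive value means that the shCTRL change was the lower one. They were called higher for 1110 genes (6.59%) and lower for 602 genes (3.57%) in the shRCOR1 line, and higher for 1504 (8.93%) and lower for 977 (5.8%) in the shRCOR2 line. The direction depended on scaling: with median-of-ratios scaling the counts were 765 and 930 for shRCOR1 and 838 and 1303 for shRCOR2. Without the block 216 and 352 genes differed in all. The integrated stress response had a median of 1.07 in the shCTRL line, 1.58 in the shRCOR1 line and 0.92 in the shRCOR2 line; 1 of its 20 members differed in shRCOR1, on the higher side, and 2 in shRCOR2, on the lower side. CHAC1 had 1.70 in shCTRL cells, 2.18 in shRCOR1 cells and 2.28 in shRCOR2 cells, and ASNS had 1.52 in shCTRL cells, 1.62 in shRCOR1 cells and 1.34 in shRCOR2 cells. G2 and M phase genes had a median of −0.37 in shCTRL, −0.64 in shRCOR1 and −0.80 in shRCOR2 cells. Heat shock genes had −0.40 in shCTRL, 0.67 in shRCOR1 and −0.39 in shRCOR2 cells; 12 of 16 differed in shRCOR1, on the higher side (6.59% of all genes), and 4 of 16 without the block. HSP90AA1 had −0.65 in shCTRL and 0.73 in shRCOR1 cells (limma adjusted p of the difference = 0.006, and 0.0773 without the block). SLC7A5 had 0.84 in shCTRL, 1.68 in shRCOR1 and −1.45 in shRCOR2 cells (limma adjusted p of the differences = 0.0154 and 0.0003; without the block 0.22 and 0.0123). MTHFD2 had 0.64 in shCTRL, −0.11 in shRCOR1 and −0.30 in shRCOR2 cells (limma adjusted p = 0.0101 and 0.0039; without the block 0.0552 and 0.0253).

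**Figure D5:**
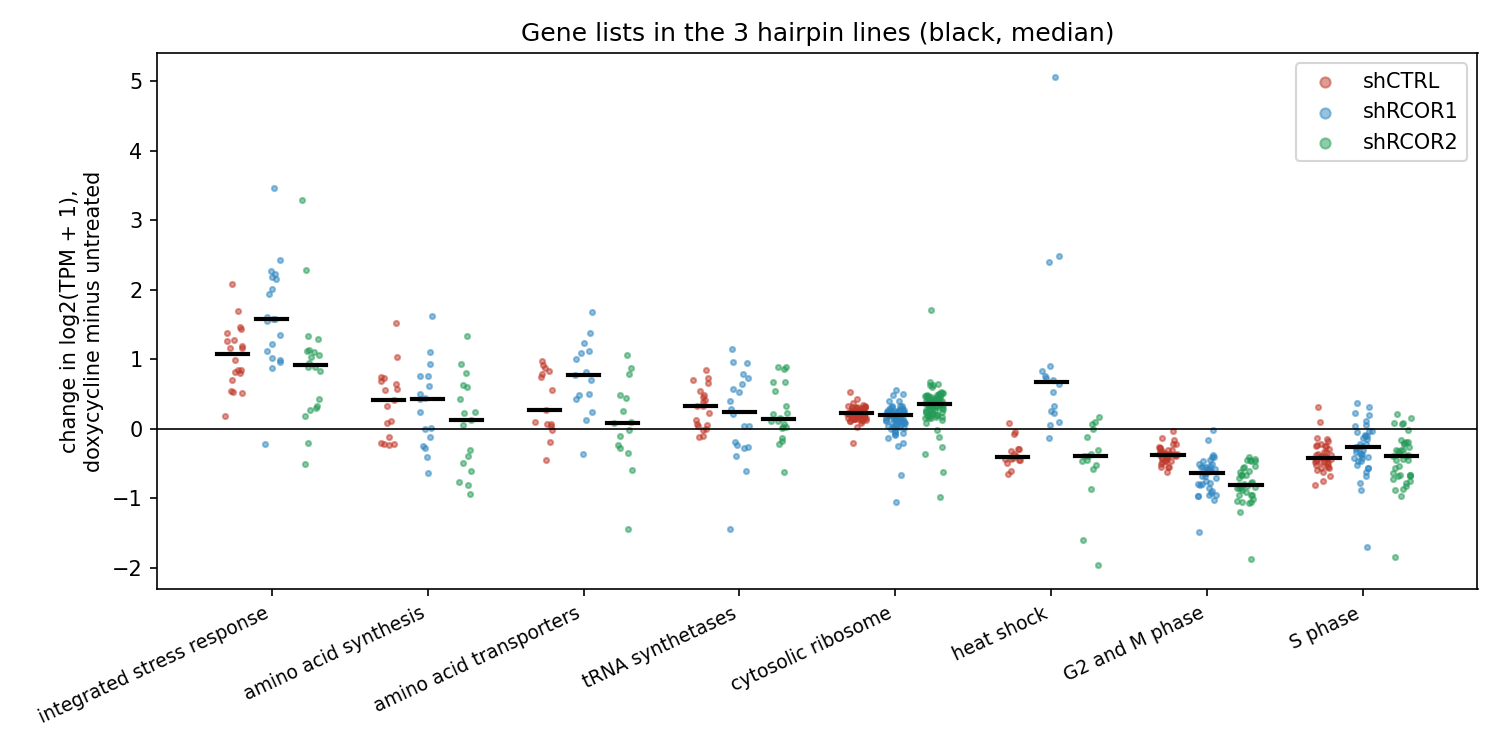
Change in log2(TPM + 1), doxycycline minus untreated, of the genes in 8 lists (points) in the shCTRL, shRCOR1 and shRCOR2 lines, with the median as a black bar. The integrated stress response had a median of 1.07, 1.58 and 0.92 in the 3 lines, and heat shock genes −0.40, 0.67 and −0.39.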

How the data were processed

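RNA from 12 libraries was sequenced; the 4 shCTRL libraries are the subject. The tools were Trim Galore 0.6.7, HISAT2 2.2.1 and StringTie 2.1.7, and the builds GRCh38 and hg38, per the submitters' processing notes. Strand setting, annotation release and multimapping rule were not given in the sources used here. The deposited TPM are scaled by the authors to a constant total, so they are shares of RNA. The deposited FPKM served as an alternative, and the deposited coverage signal only to compare depth. The files hold no read counts, so no counting intervals are given. TPM were summed per gene ID. The 16842 genes that reached a TPM of 1 in 2 or more libraries were fitted on log2(TPM + 1) in limma 3.58.1 (R 4.3.3) with 6 group means, the replicate number as a block and a variance trend (5 residual degrees of freedom); differences between lines are contrasts of the same fit. The fit was also run on simulated data with independent noise and an additive replicate effect, so that run could not check the pairing. A pseudocount understates the change of low genes.

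Replicate 1 minus replicate 2 deviations correlated between all 15 pairs of groups (r from 0.372 to 0.75; 0.75 for the 2 shCTRL groups). The labels do not say what a replicate number stands for, so the pairing rests on the numbers and this correlation. Named genes were the 10 called genes; of each list its called members or, where none was called, the 2 most abundant; RCOR1, RCOR2, RCOR3, KDM1A, MYCN and ATF4; and called genes that differed between lines; a few genes chosen by this rule are not reported here. The comparison, the 39 lists (892 genes) and these rules were chosen with earlier results of these data known. Alternatives were another pseudocount, filter, unit, scaling or sample set, no block, and each shCTRL library left out. Figures used Python 3.11.15, pandas 2.3.3, numpy 2.4.6 and matplotlib 3.10.9.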

Additional observations from a re-analysis of the deposited data

Results flagged for a closer look

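Given here are the differences between lines past the threshold among the 10 genes called in shCTRL cells. Each is the shRCOR1 or shRCOR2 change minus the shCTRL change, with the limma adjusted p of that difference under the replicate block. The 10 genes were chosen by their shCTRL change, which the difference subtracts. Differences opposite in sign to that change were therefore favoured by the choice, and the adjusted p does not allow for this. MIR22HG, which fell in shCTRL cells, differed by 1.89 in shRCOR1 (limma adjusted p = 0.0035) and 1.24 in shRCOR2 cells (limma adjusted p = 0.0135). CMTM3 differed by 0.98 in shRCOR1 and 0.52 in shRCOR2 cells (limma adjusted p = 0.005 and 0.0361). RABL6 differed by 0.46 in shRCOR1 and 0.86 in shRCOR2 cells (limma adjusted p = 0.031 and 0.0033). MT-TY differed by 0.78 in shRCOR2 cells (limma adjusted p = 0.0061). Of the genes that rose in shCTRL cells, EIF3L differed by −0.61 in shRCOR1 cells (limma adjusted p = 0.0075). In shRCOR2 cells ASS1 differed by −0.95, VEGFA by −0.74 and ERP29 by −0.43 (limma adjusted p = 0.0185, 0.0274 and 0.0247). Without the replicate block only MIR22HG in shRCOR1 cells was past the threshold among these differences (limma adjusted p = 0.0323), and the others ranged from 0.0645 to 0.397. For COA8 and UQCRFS1 neither difference was past the threshold. The changes themselves in shRCOR1 and shRCOR2 cells were 0.37 and 0.48 for COA8 and −0.74 and −0.61 for UQCRFS1. They were 1.36 and 0.26 for ASS1, 1.25 and 0.25 for VEGFA and 0.63 and 0.22 for ERP29. EIF3L had −0.003 and 0.68, MT-TY −0.53 and 0.09 and RABL6 −0.21 and 0.18. CMTM3 had 0.14 and −0.32 and MIR22HG 0.53 and −0.12.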

How the results depend on the processing

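The replicate block decided the calls: without it 0 genes rose and 0 fell in shCTRL cells, and 216 and 352 genes differed in shRCOR1 and shRCOR2 cells. Counts of risen and fallen genes were 66 and 40 in the 4 shCTRL libraries alone. That fit had fewer residual degrees of freedom than the main fit, so its spread rested on less data. The counts were 8 and 3 with FPKM, 10 and 1 with median-of-ratios scaling and 0 and 0 with quantile normalization. Under quantile normalization 2558 genes had an unadjusted limma p below 0.05. Fallen genes numbered 3 with a pseudocount of 0.1 and 0 without a filter on low values, where 1511 genes differed in shRCOR2 cells. With each shCTRL library left out, risen genes ranged from 0 to 522, fallen genes from 0 to 592, and differing genes from 595 to 2096 in shRCOR1 and 940 to 2843 in shRCOR2 cells; the cause was not tested. Of the 10 called genes, 0 stayed called without the block, without a filter, with quantile normalization, or without the replicate 2 library with doxycycline or either untreated library. The 5 genes called without a filter and the 5 called without that replicate 2 library are therefore other genes. Between 5 and 10 stayed called in the other 8 alternatives. Each of the 10 kept its direction wherever it was tested.

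The medians of 8 lists, those in the plot of the 3 lines, kept their sign in the alternatives run (chosen after seeing the data). The stress response median was 1.22 and 0.89 with pseudocounts of 0.1 and 5, 1.16 with the stricter filter and 0.71 to 1.38 with a library left out. Amino acid synthesis ranged from 0.26 to 0.57, and tRNA synthetases from 0.20 to 0.43 with a library left out. The ribosomal list had 0.27 with FPKM, 0.25 with median-of-ratios scaling, 0.13 with quantile normalization, 0.21 without mitochondrial genes and 0.19 to 0.25 with a library left out. Heat shock had −0.33 both with a pseudocount of 5 and with FPKM, and −0.50 to −0.23 with a library left out; G2 and M phase had −0.31 with FPKM. Leaving out a library moved the induced minus untreated share of TPM to between −3.69 and 1.78 percentage points for mitochondrially encoded genes and between 1.29 and 3.63 for the ribosomal list.

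Of 117 named genes, 23 changed sign in at least 1 of 14 alternatives, none of them called. TUFM had 0.029, 0.0018 and 0.023 with FPKM, median-of-ratios and quantile scaling, HAND2 0.027, 2.8e-05 and 0.0017, and HDAC2 0.022 and 0.016 with FPKM and quantile scaling. LDHB had −0.13 and NPM1 −0.077 with quantile scaling. With a library left out the ranges were −0.074 to 0.41 for MT-RNR1, −0.066 to 0.028 for TUFM, −0.23 to 0.12 for HSD17B10, −0.027 to 0.19 for FTL, −0.33 to 0.055 for SCD and −0.21 to 0.11 for BAX. They were −0.22 to 0.068 for H2BC12, −0.15 to 0.76 for H1-2, −0.036 to 0.17 for NPM1, −0.17 to 0.035 for XPO5, −0.15 to 0.0048 for ADAR and −1.03 to 0.60 for JUN. They were −0.41 to 0.025 for SPRED2, −0.68 to 0.19 for MYCN, −0.22 to 0.18 for HAND2, −0.19 to 0.031 for DBH, −0.35 to 0.11 for UCHL1, −0.43 to 0.022 for GAL and −0.099 to 0.047 for HDAC2. They were −0.48 to 0.12 for PDGFRB, −0.34 to 0.44 for KRT8 and −0.25 to 0.025 for RCOR1. With 2 libraries a group and no read counts, the precision of low TPM is unknown.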
